A study of Mus musculus with 2 samples.

Results

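Unspliced transcription between annotated genes was followed in spermatogonial progenitor cells, the germ cells of the young testis from which sperm production is maintained. A member was a transcript model that Cufflinks had assembled from the reads with 1 exon and 300 nt or more, and whose span met no RefSeq transcript on either strand. Overlapping models of the libraries were merged into 1 locus. This gave 6308 loci, from 3685 of 20579 assembled models (17.9%) in the wild-type library and 4671 of 20415 (22.9%) in the knockout library. Poly(A)-selected RNA came from C57BL/6 testes taken 8 days after birth, as 1 library of wild-type and 1 of Dnmt3l knockout cells. The labels do not say how many animals were pooled, how the cells were sorted or which Dnmt3l allele was used. A single library stands for each genotype, so differences lack replicates and the values describe this pair alone. Levels are FPKM, fragments divided by the length of the transcript and the depth of the library, with the lower and upper bounds that the deposited files give for each estimate. Presence of a model chose the members, so their number and levels are descriptions.

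Reads between genes can come from several kinds of RNA. A gene may use a poly(A) site past its annotated end, a polymerase may read on beyond it, a promoter may also fire in the opposite direction, and unannotated long noncoding RNAs and microRNA precursors lie in such stretches. In male germ cells DNMT3L, which has no catalytic activity of its own, helps the de novo DNA methyltransferases to methylate transposable elements and imprinted loci before birth. The library protocol marked no strand, and only 10 wild-type and 14 knockout member models carry one. Upstream and downstream here mean the side of the neighbouring gene, not the direction of the locus.

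A pair of sequence sets is given first, of RNAs beside or at some of these loci. The first set is of mature microRNAs whose hairpins lie within 1 kb of a locus, from RefSeq on GRCm38.p6, with the seed (bases 2 to 8) in capitals. They are shown because unspliced loci lay close to these microRNA genes, from 2 to 642 nt away, and the hairpins themselves lie outside the loci.
mmu-miR-34a-5p: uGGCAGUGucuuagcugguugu
mmu-miR-30c-5p: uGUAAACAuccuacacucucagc
mmu-miR-24-3p: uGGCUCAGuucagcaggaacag
mmu-miR-27b-3p: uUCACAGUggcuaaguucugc
mmu-miR-196a-5p: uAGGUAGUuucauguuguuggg
mmu-miR-135a-5p: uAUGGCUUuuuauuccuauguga
mmu-miR-741-3p: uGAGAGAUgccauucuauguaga
mmu-miR-742-3p: gAAAGCCAccaugcuggguaaa
mmu-miR-202-5p: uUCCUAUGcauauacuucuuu
mmu-miR-202-3p: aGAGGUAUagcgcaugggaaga
mmu-let-7a-5p: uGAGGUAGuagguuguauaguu
mmu-let-7d-5p: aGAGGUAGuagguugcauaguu
mmu-let-7f-5p: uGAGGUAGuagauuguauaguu
mmu-miR-132-3p: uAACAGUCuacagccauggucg
mmu-miR-212-3p: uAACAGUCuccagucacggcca

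The second set is of the last 60 nt of single-exon noncoding transcripts of GENCODE M21 (GRCm38) that a locus met. The 5 with the highest locus level among those covered over at least 90% of their length are shown, 5′ to 3′ on the strand of the transcript. AATAAA or ATTAAA, the hexamers that direct cleavage and polyadenylation, are in capitals. The whole of the printed end lies inside the locus for Gm45889, 2900093K20Rik and Gm21781, and part of it lies past the locus for AU020206 and Gm49066.
AU020206, chr7:75769038-75769097, minus strand: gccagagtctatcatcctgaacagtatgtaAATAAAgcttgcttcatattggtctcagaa
Gm45889, chr7:142284207-142284266, plus strand: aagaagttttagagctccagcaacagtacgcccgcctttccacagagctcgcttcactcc
Gm49066, chr15:73424050-73424109, plus strand: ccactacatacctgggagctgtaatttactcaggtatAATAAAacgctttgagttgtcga
2900093K20Rik, chr2:163420302-163420361, plus strand: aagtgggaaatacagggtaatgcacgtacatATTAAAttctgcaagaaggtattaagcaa
Gm21781, chr10:4396365-4396424, plus strand: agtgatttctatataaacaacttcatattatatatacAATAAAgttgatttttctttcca
Gm45889 is the one of the 5 with neither hexamer in its last 60 nt, and the locus over it ran on past the annotated transcript, to a span of 8053 nt.

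The libraries themselves set limits on every value. Read counts are not in the files, so depth is unknown. Median coverage per FPKM was 3.13 for wild-type and 3.45 for knockout models (1.10 times as much). The Dnmt3l RefSeq transcripts stood at 0.921 FPKM in wild-type cells and were listed at 0 in the knockout. The summed level of 5 germ cell markers went from 377 to 248 FPKM, but its members differed. Ddx4 stood at 119 and 73.7 FPKM, Dazl at 194 and 121, and Zbtb16 at 25.1 and a listed 0, while Sall4 was higher in the knockout (32.8 and 46.5) and Gfra1 about level (6.44 and 6.36). Markers of the other cells of the testis were higher in the knockout library. The 4 Sertoli markers summed to 204 and 534 FPKM, the 4 macrophage markers to 275 and 584, the 3 Leydig markers to 46.9 and 106, and the 3 endothelial markers to 28.2 and 50.8. All 14 of these markers were higher there. In bulk RNA more cells of a type and more RNA per cell cannot be told apart, and the part of this shift in the results below was not tested.

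Most loci were seen in 1 library alone. Models in both libraries supported 1548 loci (24.5%), while 1900 (30.1%) had a wild-type model alone and 2860 (45.3%) a knockout model alone. Knockout-alone loci were thus 1.51 times as many as wild-type-alone loci. Knockout-alone loci were the more numerous on each of the 20 chromosomes other than Y, from 1.04 times on chromosome 7 to 2.12 times on chromosome 14. Chromosome Y, with 13 loci, had 4 in the knockout alone and 6 in the wild type alone. Spliced loci between genes leaned the same way, 430 against 180 (2.39 times). Unspliced loci inside RefSeq introns leaned the other way, with 1348 in the knockout alone and 3193 in the wild type alone (0.422 times). A missing model is not a level of 0: the assembler needs enough reads in 1 stretch, and no ratio was made for these loci.

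**Figure D1:**
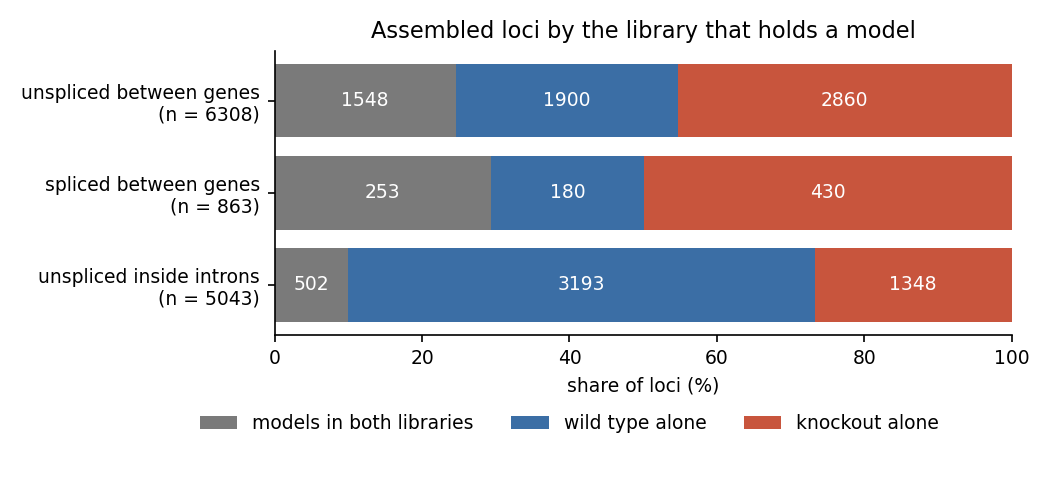
Share of assembled loci (percent, horizontal axis) with a model in both libraries, in the wild type alone or in the knockout alone, for 3 kinds of locus; numbers in the bars count loci. The knockout-alone share is 45.3% for unspliced loci between genes and 26.7% for those inside introns.

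The lean towards the knockout differed with what GENCODE places at the locus. Over untranslated regions of coding genes there were 338 knockout-alone and 176 wild-type-alone loci (1.92 times), and over exons of long noncoding RNAs 249 and 147 (1.69 times). Loci that met no GENCODE gene numbered 1683 and 1039 (1.62 times). Inside introns of coding transcripts that GENCODE has and the RefSeq set lacks, the counts were 198 and 215 (0.921 times), and inside introns of long noncoding RNAs 175 and 143 (1.22 times). Coding exons held 43 and 42, and noncoding exons of coding genes 21 and 21. Exons of provisional genes of the GENCODE class TEC held 47 and 23 (2.04 times). Pseudogene exons held 80 and 65 (1.23 times), and pseudogene introns 19 and 28 (0.679 times). The lean was thus found over untranslated regions, exons of lncRNAs and TEC genes, and unannotated sequence. It was weaker over lncRNA introns and pseudogene exons, and the counts were near equal over coding exons and coding introns.

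A locus in 1 library rarely had any other model at the same place in the other. Of the wild-type-alone loci, 1499 (78.9%) met no knockout model, 199 (10.5%) met an exon of a spliced model and 172 (9.05%) lay in the intron of one. Of the knockout-alone loci, 2365 (82.7%) met no wild-type model, 331 (11.6%) an exon and 117 (4.09%) an intron of a spliced model. The remainder met short models or unspliced ones that cross a RefSeq transcript.

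Single models of higher level, and those of 2000 nt or more, were met by a member model of the other library more often. Among wild-type models under 1 FPKM 34.4% of 1258 were met, and of those at 5 FPKM or more 68.8% of 128. For knockout models the shares were 33.1% of 1249 and 46.2% of 253. By length, the wild-type shares were 41.8% of 184 models under 500 nt, 42.0% of 1294 up to 1000 nt, 44.5% of 1584 up to 2000 nt and 71.6% of 623 longer ones. The knockout shares were 24.0% of 367, 28.2% of 1849, 44.0% of 1817 and 61.3% of 638. A longer model also offers more bases to meet. In each of these bins the share was lower for knockout than for wild-type models. About as many models were met on each side, 1771 of 3685 wild-type and 1800 of 4671 knockout models. The lower knockout share thus goes with its larger number of models and is not a separate result.

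**Figure D2:**
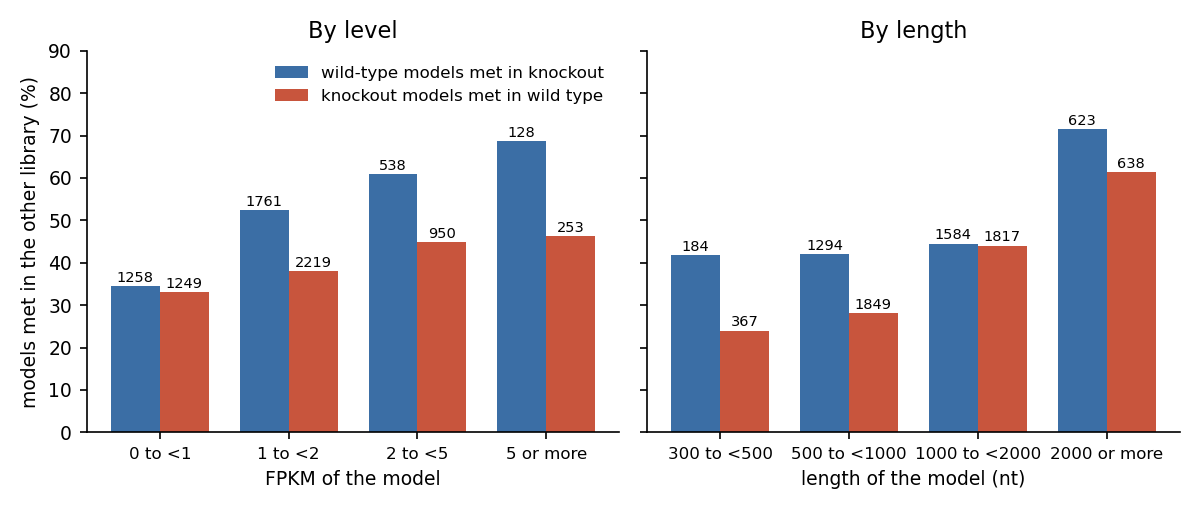
Percent of member models met by a member model of the other library (vertical axis), by the FPKM of the model (left) and by its own length in nt (right); numbers above the bars count models. The shares are highest by length at 2000 nt or more, 71.6% for wild-type and 61.3% for knockout models.

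Loci were faint and short. The median span was 1093 nt, from 300 to 21982 nt. Median levels were 1.18 FPKM over 3448 wild-type loci and 1.36 FPKM over 4408 knockout loci, and 82.3% and 74.3% of them were under 2 FPKM. Loci in both libraries had a median span of 1845 nt, against 1051 nt in the wild type alone and 934 nt in the knockout alone, but joining models across the libraries lengthens a span by construction. Single models met in the other library had medians of 1234 nt (wild type) and 1257.5 nt (knockout), and those not met 1053.5 and 934 nt. Levels of 5 FPKM or more were reached by 123 wild-type and 235 knockout loci. Near the length limit the level is hard to read. Models of 250 to 300 nt, just outside it, had medians of 8.23 FPKM (n = 38, wild type) and 7.57 FPKM (n = 64, knockout), and all of them had an FPKM outside its own bounds. Models of 300 to 350 nt, just inside, had medians of 5.86 FPKM (n = 44) and 5.12 FPKM (n = 95), with 27 and 55 outside their bounds.

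Loci lay close to genes, and more densely past 3′ ends than before starts. Within 5 kb downstream of a RefSeq 3′ end there were 1982 loci (31.4%), and within 5 kb upstream of a RefSeq start 1623 (25.7%). Of all bases outside RefSeq transcripts, 5.29 in 1000 lay in a locus. Where the nearest boundary was a 3′ end, the density was 22.1 locus nt per 1000 nt in the first kb, 40.0 between 1 and 2 kb and 32.2 between 2 and 5 kb. Where it was a start, the densities were 20.3, 25.8 and 18.3. Beyond 100 kb they were 1.02 and 1.06. The first kb is thinned by the rule itself, which drops any model that touches the gene. Distance from a locus to its nearest 3′ end had a median of 13099 nt, and 4239 loci (67.2%) lay on the downstream side of it. A locus on the upstream side has to lie beyond the whole gene, since models inside RefSeq transcripts are dropped. The rule thus favours the downstream side, and no share of bases was set beside the 67.2%. A total of 1045 loci (16.6%) were 50 kb or more from every RefSeq transcript.

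**Figure D3:**
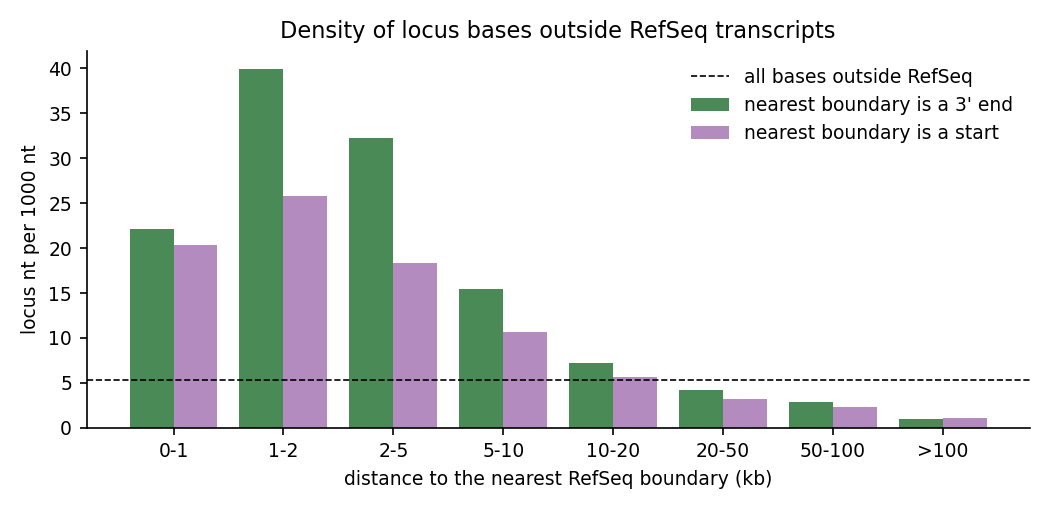
Locus nt per 1000 nt of sequence outside RefSeq transcripts (vertical axis) by distance in kb to the nearest RefSeq boundary, for bases nearest to a 3′ end and bases nearest to a start; the dashed line is the density over all such bases, 5.29. Density is highest 1 to 2 kb past a 3′ end, at 40.0.

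Position and library were related weakly. The 1588 loci near a 3′ end only had models in both libraries in 28.6% of cases, against 22.3% of the 3097 loci near neither boundary. Of knockout-alone loci, 20.7% were 50 kb or more from RefSeq, against 14.0% of wild-type-alone loci and 12.1% of loci in both. Remote loci were thus most frequent among those that the knockout library alone held.

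The promoters beside upstream loci were rich in CpG. Of 479 genes of 1 FPKM or more with a locus within 1 kb upstream of a start, 423 (88.3%) had a CpG observed over expected of 0.6 or more in the 300 nt around the start (250 before, 50 after, RefSeq, GRCm38.p6). Among all 9302 genes at that level the share was 74.5%, and for 399 genes with a locus within 1 kb downstream it was 73.2%. GENCODE has a class for transcripts that leave such starts the other way. Of 99 bidirectional promoter lncRNA genes outside RefSeq transcripts, 30 (30.3%) had an exon met by a locus. The share was 12.4% for processed transcripts and 11.1% for antisense genes. Lower shares were those of 282 of 4602 lincRNA genes (6.13%), 107 of 1277 provisional genes of the class TEC (8.38%) and 118 of 7900 processed pseudogenes (1.49%). Genes of the bidirectional class lie beside starts, where loci were denser in general, and the part of this in the 30.3% was not tested.

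Annotation newer than the RefSeq set covered less than a majority of loci. A GENCODE gene span met 2836 loci (45.0%), an exon met 1883 (29.9%), and 3472 (55.0%) met no gene. Exons of long noncoding RNAs met 588 loci, exons of pseudogenes 215 and exons of TEC genes 114. Untranslated regions of coding genes met 760 loci, 677 of them with 3′ untranslated regions alone, and for 540 of the 760 it was the region of the RefSeq gene that ended within 5 kb. Loci over these regions lay a median of 1488 nt past the RefSeq 3′ end and had medians of 1.37 and 1.62 FPKM. At the places of those 540 loci GENCODE thus lists an untranslated region that the RefSeq set does not, while 82 of the 760 met 5′ untranslated regions alone.

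Hexamers were more frequent in the annotated transcripts that loci met. Of 232 single-exon noncoding transcripts met by a locus, 143 (61.6%) had AATAAA or ATTAAA in their last 50 nt, against 593 of 1593 (37.2%) that no locus met. With AATAAA alone the shares were 46.6% and 29.9%. The libraries were poly(A)-selected, and whether abundance, length or annotation quality goes with the hexamer was not tested.

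Levels in both libraries ran together. Across the 1548 shared loci, the mitochondrial one included, the Spearman rho of FPKM was 0.643 and the Pearson r of log2(FPKM + 1) was 0.844. These describe loci of the same pair of libraries, which are not independent replicates. Ratios were taken as log2((knockout FPKM + 1)/(wild-type FPKM + 1)) for the 1400 loci that reached 1 FPKM in either library, and the other 148 stayed below it. The scale understates the change of faint loci. The median log2 ratio was 0.12 (quartiles -0.14 and 0.37), and 885 loci (63.2%) were above 0. For RefSeq transcripts that reached 1 FPKM in both libraries the median was 0.16, and relative to it the median of the loci was -0.04. For the 4016 RefSeq transcripts above 0 in both libraries at the levels of the loci (0.947 to 5.87 FPKM) the median was 0.06, and relative to that the median of the loci was 0.06. The sign of the general shift thus depends on the transcripts it is set against.

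Few shared loci differed by 2-fold. Higher in the knockout library were 21 of 1400 (1.5%) and lower 13 (0.929%). Among 4016 RefSeq transcripts above 0 in both libraries and with mean levels in the range of the loci (0.947 to 5.87 FPKM), 7.54% were higher and 8.09% lower. Over all 11833 RefSeq transcripts above 0 in both, with 1 FPKM reached in either, the shares were 7.88% and 6.69%. Spliced loci between genes gave 12.4% and 2.81% of 249, and unspliced loci inside introns 1.52% and 3.68% of 462. RefSeq isoforms divide the reads of their gene, and a shared locus had to be assembled in both libraries, so these shares do not have the same basis. Relative to the RefSeq median the split of the loci turned, to 9 higher and 22 lower. With coverage in place of FPKM it was 106 and 19. Coverage per FPKM was 1.10 times as high in the knockout library. The added 1 also weighs less beside coverage, so these counts are on another scale.

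**Figure D4:**
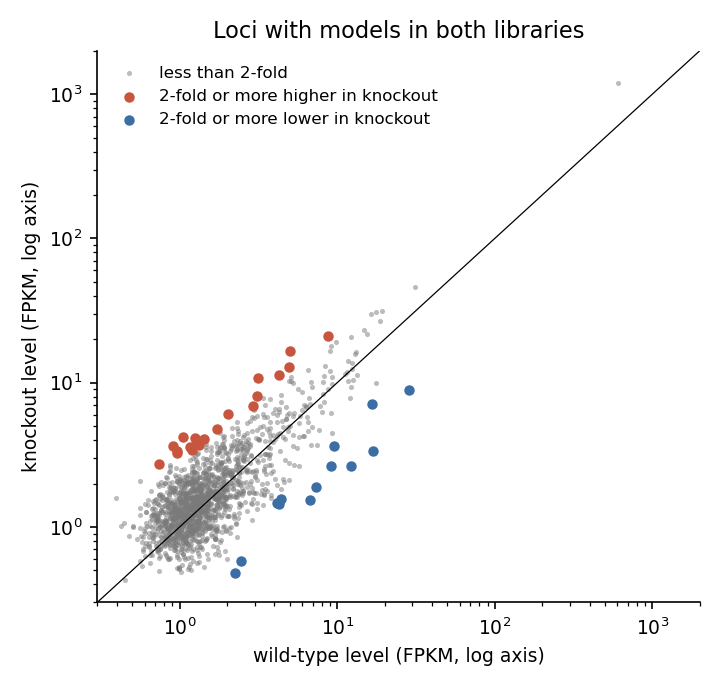
Knockout against wild-type level (FPKM, both axes logarithmic) of the loci with models in both libraries, the mitochondrial locus left out; coloured points differ by 2-fold or more after adding 1 FPKM and reach 1 FPKM in a library. The 21 loci higher in the knockout have wild-type levels of 0.740 to 8.78 FPKM, and the 13 lower ones 2.24 to 28.5 FPKM.

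Bounds of the estimates separated more loci than the 2-fold limit did. They were apart with the knockout higher at 127 of 1548 loci (8.2%) and with the knockout lower at 44 (2.84%), and overlapped at 1377. For the level-matched RefSeq transcripts the shares were 24.5% and 24.9%. Of the 21 and 13 loci beyond 2-fold, 19 and 11 also had bounds apart. At 41 loci the FPKM lay outside its own bounds in a library, which short models show most.

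Loci that were higher in the knockout library and had values within their bounds are described first. A locus of 5313 nt on chromosome 13 (13539627 to 13544939) lay 27352 nt past the end of Nid1, a basement membrane protein, and met no GENCODE gene. Its wild-type level was 3.13 FPKM (bounds 2.70 to 3.56) and its knockout level 10.9 FPKM (9.61 to 11.8), a log2 ratio of 1.52. It had 1 wild-type and 2 knockout models, and with models summed the log2 ratio was 2.15. Bounds apart were a condition of the naming by ratio here, and Nid1 itself was at 38.6 and 35.6 FPKM. Over the lncRNA gene Gm26767 on chromosome 9 (97067959 to 97069905) the levels were 2.04 FPKM (1.42 to 2.62) and 6.06 FPKM (4.87 to 7.15). Over the pseudogene Gm7061 on chromosome X (94771993 to 94774096) they were 3.12 and 8.06 FPKM, and reads of a pseudogene may belong to its parent gene. A locus of 835 nt in an untranslated region that GENCODE gives to Ebf1, a transcription factor of B cells and stroma, stood at 2.93 (1.63 to 3.89) and 6.92 FPKM (4.43 to 7.96). The Ebf1 RefSeq transcripts 2078 nt upstream were at 1.75 FPKM and a listed 0, which in these files need not mean absence.

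Other loci with the highest ratios were short. Of the 8 highest, 4 spanned 403 to 425 nt, among them one over an untranslated region of Il6ra, the receptor of interleukin 6 (4.93 and 12.8 FPKM), and one over the pseudogene Gm9855 (5.04 and 16.6 FPKM). All 4 had an FPKM outside its own bounds, so their levels are uncertain. The Il6ra RefSeq transcripts were listed at 0 in both libraries.

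Long loci were also among those lower in the knockout library. The second longest nuclear locus, 14700 nt on chromosome 4 (11175979 to 11190678), filled the stretch between Trp53inp1, a target of p53, and Ccne2, which encodes cyclin E2. It began 1602 nt past the end of Trp53inp1 and reached to 676 nt from the start of Ccne2. Its levels were 4.25 FPKM (3.95 to 4.54) and 1.44 FPKM (1.13 to 1.75), a log2 ratio of -1.11. Trp53inp1 went the same way, from 19.0 to 8.57 FPKM.

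A trio of lncRNA genes with loci of several kb were likewise lower. E430024I08Rik on chromosome 13 (locus 74441133 to 74448555) stood at 7.30 FPKM (6.72 to 7.88) and 1.88 FPKM (1.57 to 2.18). Gm46430, on the same chromosome (74603311 to 74607739), stood at 16.5 FPKM (15.1 to 17.9) and 7.13 FPKM (6.35 to 7.90). Gm45889, whose end is printed above, stood at 9.56 FPKM (8.84 to 10.3) and 3.64 FPKM (3.24 to 4.03). Their bounds were apart between the libraries, which the naming by ratio required. E430024I08Rik had 2 knockout models, and with models summed its log2 ratio went from -1.53 to -1.08.

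Shorter loci completed the lower end. A locus 4352 nt past Lcor, a corepressor of nuclear receptors, stood at 12.2 and 2.63 FPKM (log2 ratio -1.86), while Lcor RefSeq transcripts were listed at 0 in both. Over the pseudogene Gm3325, 78735 nt from the start of the zinc finger gene Zfp808, a locus stood at 6.68 and 1.54 FPKM. That locus had 2 wild-type models and 1 knockout model, and with models summed its log2 ratio went from -1.59 to -2.57. The lowest ratio, -2.04, was at a 426 nt locus over the pseudogene AC116841.1 on chromosome 18 (87851617 to 87852042), at 16.9 and 3.35 FPKM, and a 617 nt locus 9046 nt past Prps1 on chromosome X stood at 28.5 and 8.95 FPKM. Wild-type FPKM lay outside the bounds at both of these last loci.

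**Figure D5:**
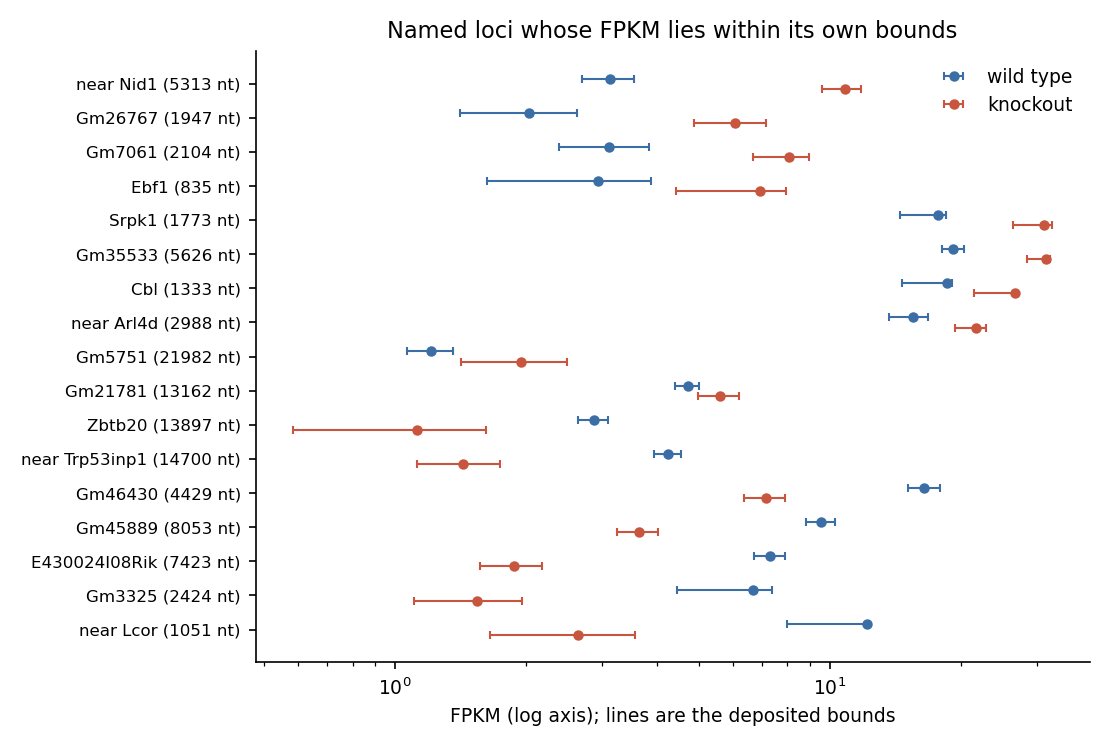
FPKM (logarithmic axis) of the named loci in both libraries whose values lie within their own bounds; points are the deposited FPKM and lines its lower and upper bounds, wild type and knockout apart. Names are GENCODE genes met, or the gene of the nearest RefSeq 3′ end. The bounds lie apart at 16 of the 17 loci and overlap for Gm21781. Loci named for their ratio had to have bounds apart, so for them this was set by the rule.

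Past the ends of genes, the ratio of the locus was barely correlated with that of the gene. For 362 loci within 5 kb downstream of 340 genes, both were compared. The Spearman rho of the log2 ratios was -0.07, and -0.01 when assembled models counted towards the gene, and 175 pairs (48.3%) had the same sign. Loci were fainter than the gene in 84.3% of wild-type and 74.3% of knockout pairs. Their level was a median of 21.2% and 25.3% of that of the gene. Locus level did not rise with gene level over these pairs. The Spearman rho of the levels was -0.14 for wild-type and -0.21 for knockout values. The pairs share both libraries, and several have the gene listed at 0 in 1 library, which need not mean absence. A locus was found within 5 kb for 1567 of 23488 genes (6.67%), from 4.15% of genes under 1 FPKM to 10.6% at 5 to 20 FPKM and 5.87% at 100 FPKM or more.

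The most abundant of these loci are as follows. The locus 410 nt past Pramel1, a gene of the PRAME-like family expressed in testis, stood at 31.0 and 46.4 FPKM. Pramel1 itself stood at 19.96 and 6.53 FPKM. The family has many near copies, so reads may have been divided between them, and both FPKM of the locus lay outside their bounds. The locus 259 nt past Srpk1, a kinase of splicing factors, stood at 17.7 FPKM (14.5 to 18.5) and 31.1 FPKM (26.5 to 32.4). Srpk1 was at 32.5 and 27.6 FPKM, and GENCODE counts the locus to its untranslated region. The locus 254 nt past Mcam, an adhesion molecule, stood at 18.6 (14.7 to 19.1) and 26.7 FPKM (21.5 to 26.7). It overlaps an untranslated region of Cbl, a ubiquitin ligase, so its reads could belong to either gene. In all 3 cases the locus was higher in the knockout library.

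Among the other abundant loci, one of 5626 nt over the lncRNA gene Gm35533, which lies 38510 nt past Kitl, stood at 19.2 FPKM (18.1 to 20.4) and 31.5 FPKM (28.4 to 32.2). Kitl encodes the ligand of the receptor KIT and is made by Sertoli cells, and it was at 5.50 and 1.63 FPKM. A locus of 2988 nt on chromosome 11 (101650529 to 101653516), with no GENCODE gene, stood at 15.5 FPKM (13.7 to 16.9) and 21.7 FPKM (19.4 to 22.9). A 444 nt locus on chromosome 3 (5860335 to 5860778), 284096 nt from Pex2, had 609 and 1188 FPKM. Its bounds were 348 to 387 and 695 to 748, so neither FPKM lay within them. It was the most abundant shared nuclear locus, lay far from every RefSeq transcript and met no GENCODE gene.

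Loci held by 1 library at high level were mostly just above the length limit. The 4 most abundant of the wild type alone spanned 323 to 682 nt, at 21.7 to 698 FPKM, and the 4 of the knockout alone 319 to 607 nt, at 39.5 to 55.2 FPKM. All 8 had an FPKM outside its bounds. At 3 of the 8 the other library held a model under 300 nt that overlapped the locus. Among them was the 345 nt locus with 698 FPKM on chromosome 2. The lack of a member model does not mean that RNA was missing there. AU020206, the lncRNA whose end is printed above, was a longer case chosen after its values were seen. Its locus of 4403 nt on chromosome 7 had 21.5 FPKM (20.1 to 22.9) in the knockout library, within its bounds, and the wild-type library had an exon of a spliced model at that place.

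Other loci among the 5 longest were at annotated genes or between close ones. The longest, 21982 nt on chromosome X over Gm5751, stood at 1.21 FPKM (1.07 to 1.36) and 1.95 FPKM (1.42 to 2.49). The locus of 13162 nt over Gm21781, from 75 nt off the start of Zbtb2, stood at 4.71 FPKM (4.40 to 5.02) and 5.59 FPKM (4.98 to 6.19). Its bounds overlapped, and it had 1 wild-type and 2 knockout models. With models summed in place of averaged, the log2 ratio went from 0.21 to 0.53 for Gm21781 and from 0.41 to 1.03 for Gm5751, which also had 1 and 2 models. The locus of 13897 nt over an untranslated region of Zbtb20 stood at 2.87 FPKM (2.63 to 3.10) from 1 wild-type model and 1.12 FPKM (0.585 to 1.62) from 3 knockout models. Summing its models turned its log2 ratio from -0.86 to 0.23, so its direction rests on how the models are combined. The last, 12738 nt between Cyp2d22 and Ndufa6, was in the wild type alone at 1.57 FPKM (1.40 to 1.75).

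MicroRNA hairpins had loci beside them. Of 226 RefSeq hairpins outside other RefSeq transcripts, 26 (11.5%) had a locus within 1 kb downstream, and of 22970 other RefSeq genes 768 (3.34%) did. The limit to places outside other RefSeq transcripts is given for the hairpins alone, so these shares do not have the same basis. Within 1 kb on either side, 32 of the 226 had a locus. With hairpins that the RefSeq set used for the rule lacks, 38 hairpins and 27 loci made 39 pairs. Of these, 28 had the locus downstream, 9 upstream and 2 the hairpin inside. The hairpins inside, Mir7686 and Mir7673, are among those that this RefSeq set lacks. In 12 pairs the gap was 25 nt or less. Models that cross a RefSeq hairpin are dropped by the rule, so a locus beside a hairpin can be what the assembler left of a longer primary transcript. Mature microRNAs are not measured by poly(A)-selected libraries.

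Of the 27 loci, 10 had models in both libraries, 5 in the wild type alone and 12 in the knockout alone. The locus 5 nt past Mir34a, whose microRNA is a target of p53, spanned 3166 nt and stood at 4.06 FPKM (3.17 to 4.86) and 4.05 FPKM (3.399 to 4.69), the same level within the bounds. The locus 13 nt past Mir24-1, which also follows Mir23b and Mir27b of the same cluster, stood at 9.03 FPKM (7.72 to 10.3) and 16.5 FPKM (14.8 to 18.2). It was the one of the 10 with the largest log2 ratio, 0.80, and it overlaps an untranslated region of 2010111I01Rik and the gene Fancc. The locus 499 nt past Mir196a-1, in the Hoxb cluster, spanned 5221 nt and stood at 3.08 FPKM (2.57 to 3.57) and 4.73 FPKM (4.10 to 5.34). The locus 5 nt past Mir30c-2 was lower in the knockout library, at 2.83 FPKM (1.62 to 3.78) and 1.46 FPKM (1.02 to 1.89), with bounds that overlap. The locus 22 nt past Mir135a-2 stood at 1.64 and 1.69 FPKM.

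Hairpins of germ cells and of the let-7 family were at loci of 1 library or of low level. Mir202, expressed in gonads, had a locus 2 nt downstream at 36.6 FPKM in the wild type alone, with Mir7686 inside it. The FPKM lay outside its bounds of 24.3 to 32.3, and the knockout library had an exon of a spliced model at that place. An overlap of 1 base was enough for this, and whether the same RNA was present there was not tested. On chromosome X, in a microRNA cluster known from male germ cells, the locus 17 nt past Mir741 stood at 1.70 FPKM (1.195 to 2.21) and 2.62 FPKM (1.76 to 3.41). The locus 19 nt past Mir742 was in the wild type alone at 1.01 FPKM, and that near Mir871 in the knockout alone at 2.61 FPKM. A knockout-alone locus at 0.671 FPKM lay between Mirlet7d and Mirlet7f-1, within 1 kb of Mirlet7a-1, whose mature 5′ arms share the seed GAGGUAG. The seed of miR-202-3p, GAGGUAU, is printed beside them for comparison. A knockout-alone locus at 0.806 FPKM followed Mir212 and Mir132, whose 3′ arms share AACAGUC. At these levels a model in 1 library alone says little of the other.

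The mitochondrial genome formed 1 locus, since it carries no RefSeq transcript in the files. It spanned 16257 nt and its levels were 1844 FPKM (bounds 1815 to 1830) in wild-type and 2465 FPKM (2433 to 2448) in knockout cells, both above their own bounds. Its transcripts are polyadenylated and made from both strands, and the locus was counted among the 6308 without being named among the nuclear ones.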

How the data were processed

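Each deposited file is a transcript annotation of 1 library. Its score column was not used, and the FPKM attribute, its bounds and a coverage were used as the authors deposited them. Paired-end reads of 100 nt were made from poly(A)-selected RNA, per the labels' protocols. CASAVA 1.9, TopHat2 2.0.8, Cufflinks 2.1.1 and mm10 are named, without settings, per the submitters' processing notes. Each file lists 30073 RefSeq transcripts, and 29628 of 30079 placements were given a symbol by accession. Samples were grouped by the genotype in their labels. Depth is unknown because counts are not in the files, and bounds cover the estimate within a library.

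Models overlapping by 1 base or more were joined. The level of a locus was the length-weighted mean FPKM of its models in a library, and its bounds the weighted mean of theirs. No test between genotypes was made. Ratios used a pseudocount of 1 FPKM. Loci were named by rank: the 10 highest mean levels, the 8 highest and 8 lowest ratios of 5 FPKM or more with bounds apart, the 4 most abundant in each library alone, the 5 longest, the 4 most abundant at 50 kb or more from RefSeq, and the 5 most abundant within 5 kb downstream. Members, lists and rules were chosen with earlier results of these data known. Annotation was GENCODE M21 and RefSeq tables of GRCm38. No genome sequence was used, so hexamers were searched in annotated transcripts. The computation was run on simulated loci for knockout against wild type, and all 1400 loci and all 200 changed by a known fold were recovered. All 1400 simulated loci had models in both libraries, against 24.5% of the real loci. Fold, noise and level of the simulated loci were set beforehand, so the run checked the computation alone. Recovery at other folds was not tested. The same holds for the levels of the real shared loci, with medians of 1.31 FPKM (wild type) and 1.52 FPKM (knockout). Recovery among the real loci, most of which had a model in 1 library alone, was thus not tested. Alternatives were other pseudocounts, filters, centring, joining and distance limits. Python 3.11.15, pandas 2.3.3, numpy 2.4.6 and scipy 1.17.1 were used.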

Additional observations from a re-analysis of the deposited data

How the results depend on the processing

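Of 46 recomputed summaries, 22 stayed within a set tolerance of the reported value. The tolerance was a factor of 1.5 for counts and 0.1 for the median log2 ratio and the correlation. For shares it was the 95% interval of the reported share. The counts of loci 2-fold higher and lower in the knockout library, 21 and 13, were 97 and 48 with a pseudocount of 0.1 FPKM, 1 and 3 with 5 FPKM, 8 and 8 with a filter of 5 FPKM, 75 and 44 with the FPKM of models summed, and 9 and 22 when centred on the median RefSeq transcript. With coverage in place of FPKM 106 were higher. The median log2 ratio was -0.036 when centred, 0.27 with the filter of 5 FPKM and 0.28 with coverage. The share of loci in both libraries was 40.3% with that filter, 16.1% when models had to overlap by 50%, and 28.9% when models up to 500 nt apart were joined. The share within 5 kb downstream of a 3′ end was 24.2% when loci lay at least 1 kb from RefSeq, 23.7% from transcripts of 1 FPKM or more, 12.2% with a limit of 1 kb and 41.2% with 10 kb. The share that met a GENCODE gene was 42.8% at least 1 kb from RefSeq and 29.9% for exons. Hexamers were at 46.6% with AATAAA alone. For pseudocounts, filters, limits and coverage the construction of the alternative moves the value. Elsewhere the cause was not tested. Among named loci, 95 of the recomputed log2 ratios kept their value within the bounds, 24 moved without a change of sign and 1, the locus over Zbtb20, turned to 0.23. Windows at the ends of loci were not run, since they need a genome. No paired analysis was possible because there is 1 library per genotype and no result comes from a test. For the same reason no replicate could be left out.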

Other observations

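Loci were shared between the libraries to different extents by annotation. Models of both libraries supported 38.6% of 114 loci over TEC exons, 32.7% of 588 over exons of long noncoding RNAs, 32.6% of 215 over pseudogene exons and 32.4% of 760 over untranslated regions. The shares were 21.6% of 3472 loci with no GENCODE gene, 19.5% of 395 in introns of long noncoding RNAs and 17.4% of 500 in introns of coding genes.

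Other noncoding classes were met at different rates. Exons of 38 of 341 antisense genes outside RefSeq transcripts (11.1%) and of 28 of 226 processed transcripts (12.4%) were met by a locus, against 31 of 2433 unprocessed pseudogenes (1.27%). The ratio between the libraries hardly varied with span: the median log2 ratio was 0.14 for 246 loci under 1000 nt, 0.14 for 533 up to 2000 nt, 0.11 for 461 up to 4000 nt and 0.08 for 160 longer ones.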
